A study of Mus musculus with 6 samples.

Results

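The solute carriers are membrane proteins that move nutrients, ions, metals, neurotransmitters and metabolites across the cell surface and the membranes of organelles. Their genes are named Slc, or Slco for the organic anion transporters, followed by a family number. The 179 genes described here were the rows with such a symbol whose FPKM (fragments per kilobase of transcript, corrected for the mapped total of the library) averaged at least 1 over 6 libraries. They were 179 of 359 solute carrier rows, and the tables held 31626 genes in all. Below the minimum were 178 rows. Slc39a1-ps, whose row held a failed estimate, was left out, and so was 1 carrier row that the selection rule sets aside by name. The members were thus selected on their mean levels in these same libraries. Just inside the minimum were Slc26a10 and Slc2a12, with means of 1.004 and 1.009 FPKM. Just outside were Slc39a2 and Slc6a2, with means of 0.995 and 0.960 FPKM.

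The cells were mouse common myeloid progenitors of the C57Bl/6 strain, immature cells from which granulocytes, monocytes, red cells and megakaryocytes arise. In every library they carried floxed Dot1l alleles and a retrovirus (MSCV) with MN1, a leukaemia oncogene, joined to GFP. In 3 libraries the cells had received Cre, which removes the floxed part of Dot1l, and in 3 they had received a control vector. All were grown in methylcellulose (M3234) with serum, IL3, IL6 and SCF and were sorted 7 days after transduction. No library with Cre and intact Dot1l was analysed here, so effects of Cre and of the deletion cannot be told apart. Whether the replicates were grown or taken from mice separately is not in the labels. The p-values therefore describe the spread among these libraries alone, and that spread may be technical.

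The enzyme DOT1L methylates histone H3 along transcribed genes. Myeloid cells use solute carriers to bring in amino acids, glucose and iron, to exchange metabolites between the mitochondria and the cytosol, and to load granules and lysosomes. Whether a carrier moves its substrate in or out depends on its type: uniporters follow the gradient, symporters use the gradient of sodium or protons, and exchangers swap one solute for another.

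Promoter sequence is shown for members with large changes in each direction, because these are the stretches from which their transcription starts. They are the 2 called carriers in each direction with the largest log2 fold change among those with a single start in the RefSeq promoter table of build GRCm38.p6, which held 140 of the 179 members. Members with an Slc symbol that encode no carrier were left out of this choice. Each run gives the 250 bases before the start, 5′ to 3′ on the gene's strand, with motif matches in capitals. Slc44a4 and Slc28a2 were higher after deletion, and Slc9a9 and Slc22a3 were lower. The runs lie at chr17:34914216-34914465 on the plus strand (Slc44a4), chr2:122426185-122426434 on the plus strand (Slc28a2), chr9:94669642-94669891 on the plus strand (Slc9a9) and chr17:12507705-12507954 on the minus strand (Slc22a3).
Slc44a4: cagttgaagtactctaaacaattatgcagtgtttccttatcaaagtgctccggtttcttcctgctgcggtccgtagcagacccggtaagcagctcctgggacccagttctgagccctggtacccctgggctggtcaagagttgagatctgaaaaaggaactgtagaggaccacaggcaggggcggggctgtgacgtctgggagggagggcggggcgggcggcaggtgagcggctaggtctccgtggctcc
Slc28a2: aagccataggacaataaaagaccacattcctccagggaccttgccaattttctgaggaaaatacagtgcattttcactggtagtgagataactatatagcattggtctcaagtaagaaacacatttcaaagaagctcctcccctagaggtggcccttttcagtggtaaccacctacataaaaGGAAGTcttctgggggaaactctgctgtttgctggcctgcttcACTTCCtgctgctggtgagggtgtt
Slc9a9: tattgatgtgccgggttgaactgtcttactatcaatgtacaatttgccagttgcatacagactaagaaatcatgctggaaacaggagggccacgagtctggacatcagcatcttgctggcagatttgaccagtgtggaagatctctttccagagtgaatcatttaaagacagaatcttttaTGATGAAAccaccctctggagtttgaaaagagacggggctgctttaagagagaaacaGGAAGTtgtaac
Slc22a3: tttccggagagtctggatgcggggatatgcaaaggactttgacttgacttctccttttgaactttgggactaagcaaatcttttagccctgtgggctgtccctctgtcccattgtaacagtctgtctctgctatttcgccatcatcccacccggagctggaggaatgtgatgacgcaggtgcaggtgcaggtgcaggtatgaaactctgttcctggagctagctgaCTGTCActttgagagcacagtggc

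Both strands were searched for GGAAGT (bound by the myeloid factor PU.1), TTGCNNAA (C/EBP factors), CACGTG (the E-box of MYC and the TFE factors), TGACAG (MEIS), TGATTNAT (PBX with HOX) and TGATGNAA (CARE, the amino acid response element of ATF4). The Slc28a2 run held the PU.1 letters 68 and 25 bases before the start. The Slc9a9 run held the PU.1 letters 12 bases and the CARE letters 69 bases before the start. The Slc22a3 run held the MEIS letters 24 bases before the start, and the Slc44a4 run held none of the 6 motifs. The PU.1 letters stood in 1 of 13 promoters of members called higher and in 3 of 27 of members called lower, against 22 of 100 of members not called and 20% of all 27025 promoters. The MEIS letters stood in 3 of 13 called higher, 5 of 27 called lower and 21 of 100 not called, against 16% of all promoters. The CARE letters stood in 1 of 13, 1 of 27 and 2 of 100, against 3.53% of all. The C/EBP letters stood in 1 of 13, 0 of 27 and 7 of 100, against 9.55% of all, and the PBX and HOX letters in 0 of 13, 0 of 27 and 1 of 100, against 2.99% of all. The E-box stood in 1 of 13 called higher, 3 of 27 called lower and 15 of 100 not called, against 6.05% of all promoters. The median number of CpG dinucleotides in the run was 11 for members called higher, 13 for those called lower and 16 for those not called, against 6 over all promoters. The set of all promoters was not limited to expressed genes, while the members were chosen at a mean of at least 1 FPKM, so these 2 sets differ in expression as well. These matches describe the letters in the runs and were not measured as binding.

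Dot1l itself had 8.24, 8.17 and 5.80 FPKM in the Dot1l-deleted libraries, against 20.2, 22.6 and 19.6 FPKM in the control libraries. The groups did not overlap, and the log2 fold change was -1.39 (SE 0.157, limma adjusted p = 0.000124). An FPKM value covers the whole gene, so some of the signal that remains may come from exons that Cre does not remove. The third Dot1l-deleted library stood apart: the median deviation of its genes from their mean over all libraries was -0.37 on the log2 scale, while in the other 5 libraries it was 0.0499 to 0.103. The 10 highest rows took 39% of its FPKM, against 6.59% to 10.8% in the other libraries. As deposited, the 11924 tested genes had a median log2 fold change of -0.16. Median-of-ratios scaling, which removes a shift shared by most genes of a library, brought that median to 0.0011. Counts below are given as deposited and then with this scaling.

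Markers of other cell states moved with the groups. All 7 tested neutrophil markers were called higher, and the summed FPKM of the 8 listed markers in the files was 20580 to 24400 in Dot1l-deleted cells, against 987 to 1219 in control cells. Of 6 tested monocyte and macrophage markers 4 were higher and 1 was lower, with sums of 437 to 508 FPKM in Dot1l-deleted cells and 124 to 140 FPKM in control cells. Among 8 progenitor markers, Cd34 was 6.10-fold and Kit 2.04-fold lower, while Mpo, Prtn3 and Fcgr3 were higher. Of the 6 tested erythroid markers 2 were higher and 3 lower. The B cell marker Ms4a1 and the T cell marker Cd8a were listed at 0 in all 6 libraries. Another B cell marker, Cd79b, had 5.05, 5.49 and 3.96 FPKM in Dot1l-deleted cells, against 1.59, 1.16 and 1.19 FPKM in control cells, and was called 3.68-fold higher (adjusted p = 0.000305). The part of these cell states in the changes of the carriers was not tested. In bulk RNA, a change in the number of cells of a type and a change in RNA per cell cannot be told apart.

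Of the 179 members, 19 were called higher and 35 lower after deletion (limma on log2(FPKM + 1), Benjamini-Hochberg adjusted p under 0.05 over all 11924 genes). That is 10.6% higher and 19.6% lower, where 7.43% of all tested genes were called higher and 12.2% lower. The median log2 fold change of the members was -0.18, beside -0.16 over all genes. With median-of-ratios scaling 52 members were higher and 55 lower, where 23.0% and 22.3% of all genes were called in those directions. The counts by class and list below are to be read beside these shares over all genes. All 54 members called as deposited were called in the same direction with scaling, and also without the third Dot1l-deleted library. The scaling moved the share of calls that were higher to 48.6%, beside 35.2% as deposited. Without the third Dot1l-deleted library, 43 members were higher and 52 lower, where 17.4% and 21.0% of all genes were. Leaving out any one of the other 5 libraries gave 13 or 14 members higher. Leaving out the first, the second or the third control library gave 19, 17 or 20 members lower.

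A part of the calls rested on all libraries being present. Of the 54 called members, 13 called higher and 17 called lower kept their call whichever library was left out. The other 24 lost it without at least 1 library, never without the third Dot1l-deleted one; they are named below with the highest adjusted p that resulted. The fit without a filter on low genes ended the calls of 14 of these 24, 6 higher and 8 lower, and the fit without a variance trend ended 4. All 3 Dot1l-deleted values lay above all 3 control values for 29 members and below them for 71, while 79 members overlapped. Over all tested genes, 10.7% lay wholly above and 34.1% wholly below. Changes of at least 2-fold in mean FPKM were called for 12 members higher and 13 lower, where 5.33% and 4.69% of all genes passed the same rule.

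**Figure D1:**
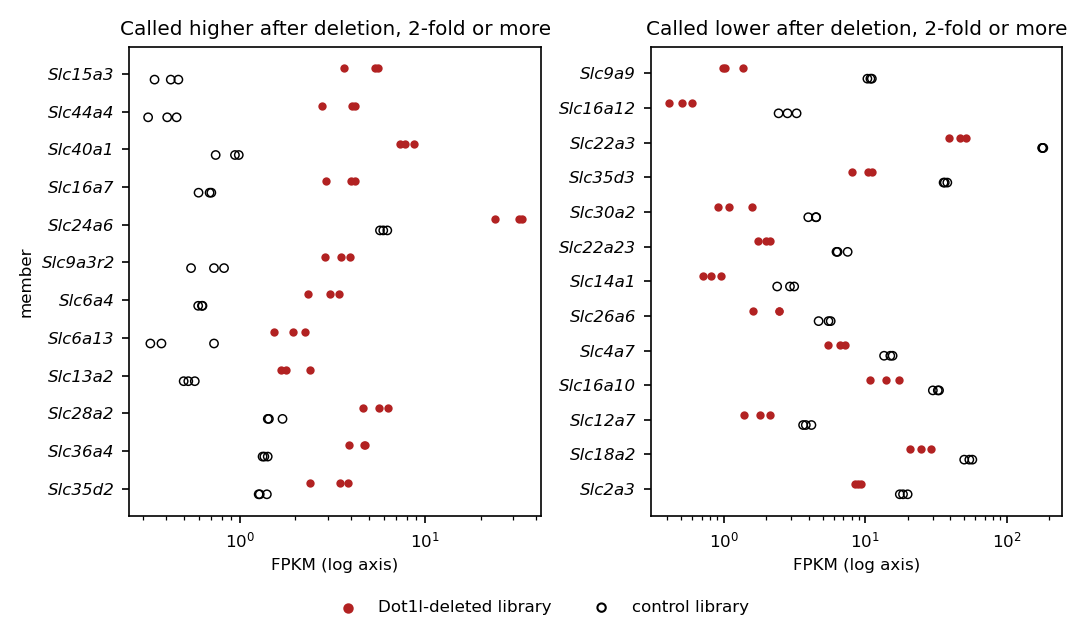
FPKM (log axis) of the 25 members called with at least a 2-fold difference of means, 1 point per library, with 3 Dot1l-deleted libraries (filled red, upper row of each gene) and 3 control libraries (open, lower row). The left panel holds the 12 members called higher and the right panel the 13 called lower, and in no member do the groups overlap.

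Calls of at least 2-fold were more frequent at 1 to 5 FPKM than in either higher range, among the members and among all genes. Among 58 members with a mean of 1 to 5 FPKM, 11 were called at least 2-fold higher and 6 at least 2-fold lower, which is 19.0% and 10.3%. Over all tested genes in that range the shares were 10.7% higher and 8% lower. From 5 to 20 FPKM, 1 of 66 members was called at least 2-fold higher and 3 at least 2-fold lower. These were 1.515% and 4.545% of the members, where 4.176% and 4.769% of all tested genes in that range passed. Among 55 members with a mean of 20 FPKM or more, limma called 0 at least 2-fold higher and 4 at least 2-fold lower: Slc22a3, Slc35d3, Slc16a10 and Slc18a2. At 20 FPKM and over the shares of all tested genes called at least 2-fold were 2.97% higher and 2.58% lower. At any fold 0 members in that range were called higher and 11 lower, and 1 was higher at an unadjusted p under 0.05. Of all 4877 tested genes in that range, 231 were called higher and 408 lower. With scaling 8 of these members were higher and 21 lower, and without the third Dot1l-deleted library 6 were higher and 21 lower. The minimum admits genes through 1 group alone. The control mean was below 1 FPKM in 12 members, of which 8 were called higher, and the Dot1l-deleted mean was below 1 FPKM in 4, of which 2 were called lower. The 8 were Slc40a1, Slc6a4, Slc6a13, Slc13a2, Slc15a3, Slc16a7, Slc44a4 and Slc9a3r2, and the 2 were Slc14a1 and Slc16a12. These calls rest on members admitted through the group where they are high. Among the 163 members with both means at 1 FPKM or more, 11 were higher and 33 lower, which is 6.748% and 20.25%. With scaling 41 were higher and 53 lower. The shares over all tested genes, without that limit, were 7.43% and 12.2% as deposited and 23.0% and 22.3% with scaling.

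**Figure D2:**
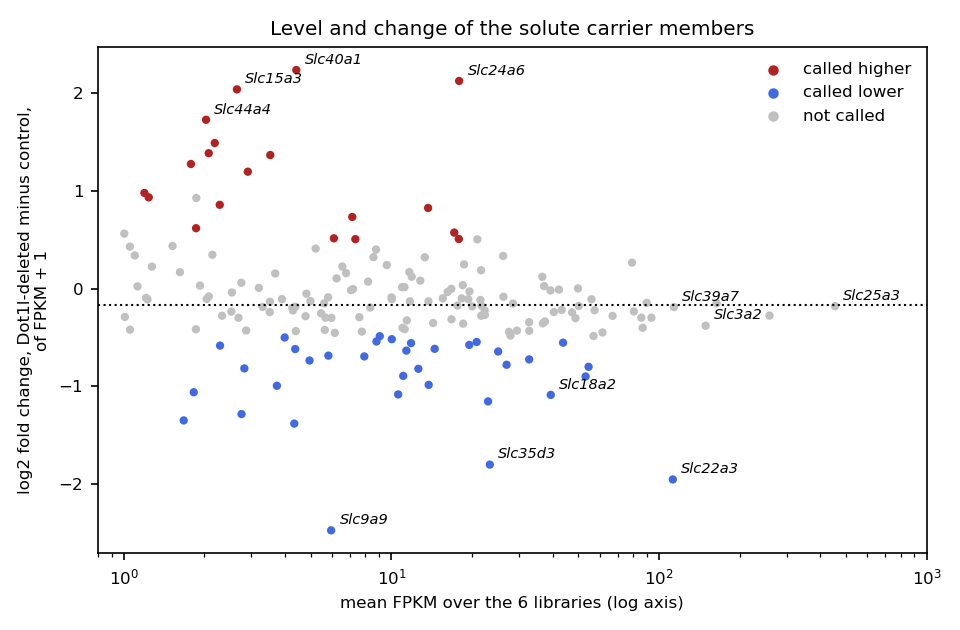
Mean FPKM over the 6 libraries (log axis) against the log2 fold change of FPKM + 1, Dot1l-deleted minus control, for each of the 179 members. Red points were called higher, blue points lower and grey points neither, and the dotted line is the median of all tested genes, -0.16. The largest increases lie at means under 20 FPKM, and Slc22a3 is the highest member with a change of at least 2-fold.

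Metal and heme carriers held the member with the largest increase on the log2 scale. Of their 25 members, 4 were called higher and 5 lower, and with scaling 9 were higher and 11 lower. Slc40a1 encodes ferroportin, the exporter of iron. It had 7.33, 8.70 and 7.77 FPKM in Dot1l-deleted cells, against 0.741, 0.988 and 0.942 FPKM in control cells. The groups lay far apart, and the mean was 8.91-fold higher (log2 fold change 2.24, SE 0.151, adjusted p = 3.77e-06). The control mean of Slc40a1 was below 1 FPKM, so it passed the minimum only through the Dot1l-deleted group, where it is high. Slc39a8, the ZIP8 importer of zinc, manganese and iron, had 16.9, 20.7 and 15.9 FPKM in Dot1l-deleted cells, against 9.45, 9.37 and 9.87 FPKM in control cells. Its mean was 1.87-fold higher without overlap (log2 fold change 0.83, adjusted p = 0.00204).

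The other metal carriers called higher were Slc39a4, the ZIP4 zinc importer, and Slc31a2, a copper transporter of internal membranes. Slc39a4 had 11.0, 9.78 and 6.92 FPKM in Dot1l-deleted cells, against 5.02, 5.39 and 4.77 FPKM in control cells. Slc31a2 had 22.0, 24.5 and 16.1 FPKM in Dot1l-deleted cells, against 12.5, 13.7 and 14.3 FPKM in control cells. Slc39a4 lost its call without the first or the third control or the first or second Dot1l-deleted library (adjusted p up to 0.0596). Slc31a2 lost it without any 1 of the 5 libraries other than the third Dot1l-deleted one (up to 0.171). The neighbouring gene Slc31a1, the copper importer of the cell surface, had 25.3, 26.8 and 18.0 FPKM in Dot1l-deleted cells, against 32.6, 31.5 and 30.9 FPKM in control cells. It was not called as deposited and was called lower with scaling (log2 fold change -0.27, adjusted p = 0.00261).

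Among metal carriers called lower, Slc30a2, the ZnT2 transporter that loads zinc into vesicles, had the largest change. It had 1.59, 1.09 and 0.910 FPKM in Dot1l-deleted cells, against 3.96, 4.48 and 4.50 FPKM in control cells, a 3.61-fold lower mean (log2 fold change -1.28, SE 0.173, adjusted p = 0.000424). Slc39a6, a zinc importer, had 22.0, 21.5 and 15.1 FPKM in Dot1l-deleted cells, against 30.5, 31.2 and 30.2 FPKM in control cells. Its partner Slc39a10, with which it is known to form a complex, had 18.0, 16.3 and 12.5 FPKM in Dot1l-deleted cells, against 24.3, 24.0 and 22.2 FPKM in control cells. Slc41a1, a magnesium transporter, had 3.47, 3.47 and 2.78 FPKM in Dot1l-deleted cells, against 5.26, 6.13 and 5.11 FPKM in control cells. Slc11a2 (DMT1), which brings ferrous iron out of endosomes, was 1.48-fold lower. Only Slc30a2 of these kept its call whichever library was left out: Slc39a6 and Slc41a1 lost it without any 1 control (adjusted p up to 0.109 and 0.1001), and Slc39a10 and Slc11a2 without any 1 control or the second Dot1l-deleted library (up to 0.144 and 0.180).

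The most abundant metal carriers were not called. Slc39a7, the ZIP7 transporter that releases zinc from the endoplasmic reticulum, had 123, 116 and 81.6 FPKM in Dot1l-deleted cells, against 127, 117 and 117 FPKM in control cells. Slc30a5, a zinc transporter of the secretory pathway, had 45.2, 44.3 and 31.1 FPKM in Dot1l-deleted cells, against 46.5, 45.6 and 46.9 FPKM in control cells. In both genes the third Dot1l-deleted library alone stood far below the rest. Slc48a1, a heme transporter of endosomes, varied within each group: 5.23, 3.19 and 0.00045 FPKM in Dot1l-deleted cells, against 0.000152, 2.78 and 7.35e-05 FPKM in control cells. Near-zero values stood in both groups, and no direction is given.

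As deposited, most amino acid carriers were not called. Of 23 members 2 were called higher and 4 lower, which is 8.696% and 17.39%, beside 7.43% and 12.2% of all tested genes. The median log2 fold change of the class was -0.29, beside -0.16 over all tested genes. With scaling 5 were higher and 10 lower, which is 21.74% and 43.48%, beside 23.0% and 22.3% of all genes. Slc36a4, the proton-linked PAT4 carrier, had 4.72, 4.72 and 3.90 FPKM in Dot1l-deleted cells, against 1.36, 1.33 and 1.42 FPKM in control cells, 3.25-fold higher (log2 fold change 1.20, SE 0.154, adjusted p = 0.000305). Slc7a11, the cystine and glutamate exchanger xCT, had 3.06, 2.49 and 1.89 FPKM in Dot1l-deleted cells, against 1.35, 1.11 and 1.28 FPKM in control cells. The groups did not overlap, but the call was lost without any 1 library other than the third Dot1l-deleted one (adjusted p up to 0.122).

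Slc16a10, the TAT1 uniporter of aromatic amino acids, had the largest decrease among amino acid carriers. It had 17.3, 14.0 and 10.8 FPKM in Dot1l-deleted cells, against 33.2, 32.6 and 30.0 FPKM in control cells, 2.28-fold lower (log2 fold change -1.15, SE 0.175, adjusted p = 0.000925). Slc1a4 (ASCT1), an exchanger of small neutral amino acids, had 4.18, 3.66 and 2.63 FPKM in Dot1l-deleted cells, against 6.33, 6.49 and 6.37 FPKM in control cells. Slc7a6, a cationic amino acid exchanger that works as a pair with Slc3a2, had 27.9, 26.6 and 19.3 FPKM in Dot1l-deleted cells, against 40.0, 42.0 and 40.6 FPKM in control cells. Slc38a9, the lysosomal arginine sensor that acts on mTORC1, had 3.42, 3.14 and 2.84 FPKM in Dot1l-deleted cells, against 4.41, 5.01 and 5.13 FPKM in control cells. The last 3 do not overlap between groups but are less firm: Slc1a4 lost its call without the second control (adjusted p = 0.0522), Slc7a6 without any 1 control (up to 0.0720) and Slc38a9 without any 1 control or the second Dot1l-deleted library (up to 0.171).

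The abundant amino acid carriers were not called. Slc3a2, the CD98 heavy chain that partners several Slc7 exchangers, had 148, 139 and 104 FPKM in Dot1l-deleted cells, against 176, 170 and 159 FPKM in control cells. Slc1a5 (ASCT2), a glutamine carrier, had 93.7, 93.8 and 66.1 FPKM in Dot1l-deleted cells, against 105, 103 and 101 FPKM in control cells. Neither gene overlapped between the groups, yet the range within the Dot1l-deleted group was wider than the difference of the means. With scaling both were called lower, Slc3a2 with a log2 fold change of -0.20 (adjusted p = 0.0110) and Slc1a5 with -0.11 (adjusted p = 0.0215).

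**Figure D3:**
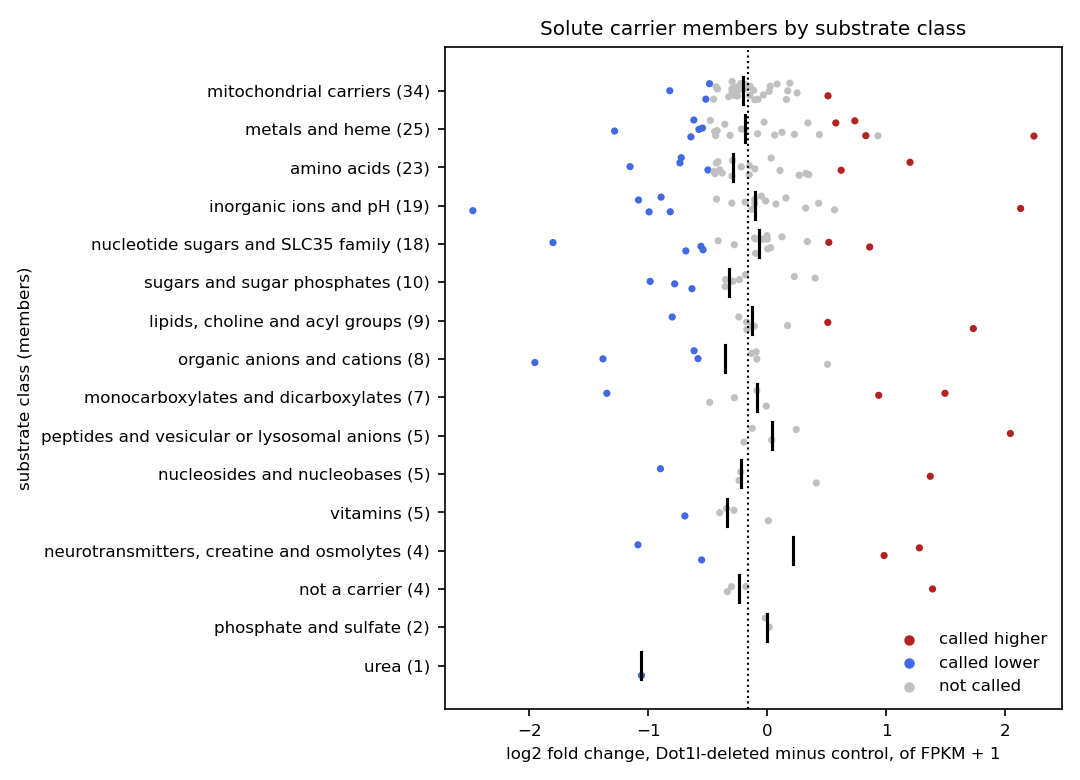
Log2 fold change of FPKM + 1, Dot1l-deleted minus control, for the 179 members by substrate class, with the number of members in brackets; points are spread vertically at random within a class. Red was called higher, blue lower and grey neither, short black lines are class medians and the dotted line is the median of all tested genes, -0.16. Organic anion and cation carriers have 4 of 8 members called lower, while mitochondrial carriers cluster close to the dotted line.

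Carriers of inorganic ions and pH held the member with the largest decrease and one of the largest increases. Of 19 members 1 was called higher and 5 lower, and with scaling 6 were higher and 6 lower. Slc24a6, now named Slc8b1, encodes NCLX, the exchanger that moves calcium out of mitochondria. It had 32.1, 33.5 and 23.8 FPKM in Dot1l-deleted cells, against 5.96, 6.27 and 5.72 FPKM in control cells, 4.99-fold higher (log2 fold change 2.13, SE 0.156, adjusted p = 6.17e-06). Slc9a9 encodes NHE9, a sodium and proton exchanger of endosomes. It had 1.37, 0.987 and 1.02 FPKM in Dot1l-deleted cells, against 10.4, 11.1 and 10.9 FPKM in control cells, 9.60-fold lower (log2 fold change -2.48, SE 0.143, adjusted p = 1.43e-06). Both genes kept their call whichever library was left out.

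The other 4 ion carriers called lower also kept their calls in all of those fits. Slc4a7 (NBCn1), a sodium and bicarbonate cotransporter, had 7.19, 6.68 and 5.49 FPKM in Dot1l-deleted cells, against 13.6, 15.0 and 15.6 FPKM in control cells, 2.29-fold lower (adjusted p = 0.000324). Slc26a6, an anion exchanger, had 2.47, 2.45 and 1.61 FPKM in Dot1l-deleted cells, against 4.68, 5.70 and 5.49 FPKM in control cells, 2.43-fold lower. Slc24a5, a calcium exchanger best known from melanosomes, had 7.73, 8.29 and 6.31 FPKM in Dot1l-deleted cells, against 13.2, 13.6 and 17.3 FPKM in control cells, 1.98-fold lower. Slc12a7, the potassium and chloride cotransporter KCC4, had 2.12, 1.82 and 1.39 FPKM in Dot1l-deleted cells, against 3.64, 4.16 and 3.80 FPKM in control cells, 2.18-fold lower. None of these 4 overlapped between the groups. Slc4a2, the most abundant anion exchanger of the class, had 16.5, 17.1 and 11.5 FPKM in Dot1l-deleted cells, against 11.6, 11.8 and 11.5 FPKM in control cells. It was not called as deposited and was called higher with scaling (log2 fold change 0.49, adjusted p = 0.000222) and without the third Dot1l-deleted library.

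Organic anion and cation carriers had 0 of 8 members called higher by limma and 4 lower, with 1 higher at an unadjusted p under 0.05. With scaling 1 was higher and 4 were lower. Slc22a3 encodes OCT3, a carrier of monoamines such as histamine and of other organic cations. It had 51.5, 47.0 and 39.0 FPKM in Dot1l-deleted cells, against 178, 181 and 179 FPKM in control cells, 3.91-fold lower (log2 fold change -1.95, SE 0.164, adjusted p = 1.51e-05). Slc22a23, a family member without a settled substrate, had 2.14, 1.98 and 1.75 FPKM in Dot1l-deleted cells, against 6.37, 7.51 and 6.26 FPKM in control cells, 3.43-fold lower. Both kept their call whichever library was left out. Slco3a1 and Slco2b1, carriers of prostaglandins, steroid sulfates and similar anions, were 1.58-fold and 1.78-fold lower without overlap. Slco3a1 lost its call without any 1 control (adjusted p up to 0.0760), and Slco2b1 without any 1 control or the first Dot1l-deleted library (up to 0.134).

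The decrease was not shared by the whole class. Slc22a4 and Slc22a5, carriers of ergothioneine and carnitine that lie beside each other and Slc22a21, had log2 fold changes of -0.09 and -0.13 and were not called. Slco4a1 had 25.7, 28.2 and 20.5 FPKM in Dot1l-deleted cells, against 15.3, 19.7 and 16.4 FPKM in control cells. It was not called as deposited and was called higher with scaling (log2 fold change 0.68, adjusted p = 0.00234). The class made up 2.50% to 2.78% of the members' summed FPKM in Dot1l-deleted cells, against 4.99% to 5.32% in control cells, and most of that difference was Slc22a3.

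Carriers of neurotransmitters, creatine and osmolytes were called in both directions, 2 higher and 2 lower of 4, with and without scaling. Both called higher had control means below 1 FPKM, so they passed the minimum only through the Dot1l-deleted group, where they are high. Slc6a4, the serotonin transporter, had 3.07, 3.45 and 2.32 FPKM in Dot1l-deleted cells, against 0.596, 0.625 and 0.629 FPKM in control cells, 4.78-fold higher (adjusted p = 0.000669). Slc6a13 (GAT2), which takes up GABA and taurine, had 2.26, 1.94 and 1.53 FPKM in Dot1l-deleted cells, against 0.726, 0.329 and 0.377 FPKM in control cells. Slc18a2 encodes VMAT2, which loads monoamines into secretory vesicles. It had 25.0, 29.1 and 20.9 FPKM in Dot1l-deleted cells, against 50.0, 57.1 and 54.4 FPKM in control cells, 2.16-fold lower (log2 fold change -1.09, adjusted p = 0.000894). Slc6a6, the taurine transporter, was 1.48-fold lower and lost its call without any 1 library other than the third Dot1l-deleted one (adjusted p up to 0.192).

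Slc18a2 and Slc22a3 are both monoamine carriers and both were lower, while Slc6a4 was higher at a lower level. Mast cells and basophils are known to store monoamines. Of 3 tested markers of these cells 1 was called, Ms4a2, the beta chain of the IgE receptor, which was 3.73-fold lower. Mcpt8, a basophil protease, had 80.8, 84.3 and 57.8 FPKM in Dot1l-deleted cells, against 56.7, 44.8 and 54.3 FPKM in control cells. It was not called as deposited and was called higher with scaling (log2 fold change 0.68, adjusted p = 0.00140). The summed level of the 5 listed markers was 1353 to 1987 FPKM in Dot1l-deleted cells, against 2075 to 2315 FPKM in control cells. Most of that sum was Cpa3, a mast cell protease, which averaged 1500 FPKM in Dot1l-deleted cells and 1953 FPKM in control cells, with overlapping groups and no call. The part of these cells in the 3 carriers' changes was not tested.

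Classes were assigned by hand, mostly by family, and some carriers have substrates of several classes. Monocarboxylate and dicarboxylate carriers had 2 of 7 members called higher and 1 lower, and with scaling 2 were higher and 2 lower. All 3 called as deposited had 1 group mean below 1 FPKM and passed the minimum only through the other group. Slc16a7, the high-affinity lactate and pyruvate carrier MCT2, had 3.99, 4.22 and 2.93 FPKM in Dot1l-deleted cells, against 0.599, 0.702 and 0.687 FPKM in control cells, 5.60-fold higher (log2 fold change 1.49, SE 0.180, adjusted p = 0.000193). Slc13a2, the sodium-linked carrier of citrate and succinate, had 1.66, 2.39 and 1.78 FPKM in Dot1l-deleted cells, against 0.498, 0.527 and 0.571 FPKM in control cells, 3.66-fold higher. Its neighbour Slc46a1, a folate and heme carrier, was not called. Slc16a12, placed here by its family although it is known to carry creatine, had 0.412, 0.596 and 0.504 FPKM in Dot1l-deleted cells, against 2.44, 2.82 and 3.27 FPKM in control cells, 5.64-fold lower (adjusted p = 0.000431). The 3 calls held whichever library was left out.

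The 2 abundant lactate carriers did not pass the test as deposited. Slc16a1 (MCT1) had 54.5, 54.7 and 34.4 FPKM in Dot1l-deleted cells, against 68.9, 64.6 and 64.4 FPKM in control cells. With scaling it was called lower (log2 fold change -0.30, adjusted p = 0.00895). Slc16a3 (MCT4), the exporter used by glycolytic cells, had 46.6, 46.8 and 32.4 FPKM in Dot1l-deleted cells, against 54.5, 32.5 and 40.8 FPKM in control cells. Its groups overlapped, and the controls alone ranged from 32.5 to 54.5 FPKM.

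Sugar carriers had 0 of 10 members called higher by limma and 3 lower, with 1 higher at an unadjusted p under 0.05. With scaling 2 were higher and 3 lower. Slc2a3, the glucose transporter GLUT3, had 9.28, 8.96 and 8.51 FPKM in Dot1l-deleted cells, against 19.9, 17.5 and 18.5 FPKM in control cells, 2.09-fold lower (log2 fold change -0.99, SE 0.128, adjusted p = 0.000327). Slc45a3, a proton-linked sugar carrier, had 22.1, 22.0 and 15.1 FPKM in Dot1l-deleted cells, against 36.9, 34.0 and 31.6 FPKM in control cells. Slc2a6 (GLUT6), a lysosomal hexose carrier, had 9.50, 9.92 and 6.81 FPKM in Dot1l-deleted cells, against 15.6, 13.6 and 12.8 FPKM in control cells. Slc45a3 lost its call without the first or second control (adjusted p up to 0.0606) and Slc2a6 without any 1 control (up to 0.123), while Slc2a3 kept its call throughout. Slc2a1 (GLUT1), the most abundant glucose carrier, had 38.2, 34.9 and 24.2 FPKM in Dot1l-deleted cells, against 46.6, 36.4 and 40.6 FPKM in control cells, and the groups overlapped.

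Mitochondrial carriers of the Slc25 family formed the largest class. Of 34 members 1 was called higher and 3 lower, which is 2.941% and 8.824%, beside 7.43% and 12.2% of all tested genes. With scaling 8 were higher and 5 lower, which is 23.53% and 14.71%, beside 23.0% and 22.3% of all genes. The class made up 37.0% to 38.2% of the members' summed FPKM in Dot1l-deleted cells, against 35.1% to 36.3% in control cells. Slc25a3, the phosphate carrier, had 499, 469 and 322 FPKM in Dot1l-deleted cells, against 507, 470 and 460 FPKM in control cells. Slc25a5, an exchanger of ADP and ATP, had 276, 254 and 179 FPKM in Dot1l-deleted cells, against 281, 283 and 280 FPKM in control cells. Neither was called. Slc25a5 has close paralogues such as Slc25a4 and processed copies in the genome, so its share of reads is uncertain.

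Slc25a33, a carrier of pyrimidine nucleotides, had the firmest change among mitochondrial carriers. It had 9.99, 9.60 and 7.07 FPKM in Dot1l-deleted cells, against 17.4, 16.5 and 15.2 FPKM in control cells, 1.84-fold lower (log2 fold change -0.82, SE 0.154, adjusted p = 0.00366). Slc25a36, its close relative, and Slc25a32, a folate and FAD carrier, were 1.45-fold and 1.47-fold lower. Slc25a45 had 22.7, 23.0 and 17.9 FPKM in Dot1l-deleted cells, against 15.3, 15.3 and 13.0 FPKM in control cells, 1.46-fold higher. Slc25a45 and Slc25a36 lost their calls without any 1 library other than the third Dot1l-deleted one (adjusted p up to 0.233 and 0.183), and Slc25a32 without any 1 control or the second Dot1l-deleted library (up to 0.172). Slc25a37 (mitoferrin 1) and Slc25a38, which serve iron and glycine supply for heme synthesis, were not called as deposited and were called higher with scaling (log2 fold changes 0.37 and 0.34).

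Nucleotide sugar carriers of the Slc35 family, most of which supply the Golgi and endoplasmic reticulum for glycosylation, had 2 of 18 members called higher and 4 lower. With scaling 7 were higher and 5 lower. Slc35d3, known in mice for its role in platelet dense granules, had 11.1, 10.5 and 8.10 FPKM in Dot1l-deleted cells, against 35.8, 36.5 and 38.0 FPKM in control cells, 3.71-fold lower (log2 fold change -1.80, SE 0.151, adjusted p = 1.46e-05). The megakaryocyte marker Itga2b was 4.43-fold lower and Pf4 1.73-fold higher, and the part of such cells in the change was not tested. Slc35d2, a carrier of UDP-N-acetylglucosamine, had 3.50, 3.87 and 2.39 FPKM in Dot1l-deleted cells, against 1.40, 1.27 and 1.28 FPKM in control cells, 2.47-fold higher (adjusted p = 0.00784). The call of Pf4 was lost without the second control (adjusted p = 0.0788).

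The remaining Slc35 calls were smaller and less firm. Slc35e4, without a settled substrate, was 1.74-fold lower and lost its call without the first or second control (adjusted p up to 0.0829). Slc35a1, which carries CMP-sialic acid, and Slc35b3, which carries the sulfate donor PAPS, were both 1.51-fold lower and lost their calls without any 1 control or the first Dot1l-deleted library (up to 0.142 and 0.152). Slc35a5 was 1.52-fold higher and lost its call without any 1 library other than the third Dot1l-deleted one (up to 0.161). The abundant Slc35c2 and Slc35b1 had log2 fold changes of -0.11 and -0.28 and were not called.

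Carriers of lipids, choline and acyl groups had 2 of 9 members called higher and 1 lower, with the same counts under scaling. Of the 2 called higher, Slc44a4 had a control mean below 1 FPKM and passed the minimum only through the Dot1l-deleted group. Slc44a4, a choline transporter-like protein, had 4.19, 4.02 and 2.79 FPKM in Dot1l-deleted cells, against 0.456, 0.405 and 0.320 FPKM in control cells, 9.31-fold higher (log2 fold change 1.73, SE 0.191, adjusted p = 0.000104). Slc44a2, a choline carrier of the same family, had 42.9, 43.7 and 32.5 FPKM in Dot1l-deleted cells, against 69.4, 70.5 and 68.2 FPKM in control cells, 1.75-fold lower (adjusted p = 0.00628). Slc27a4, a fatty acid transport protein, was 1.504-fold higher and lost its call without any 1 library other than the third Dot1l-deleted one (adjusted p up to 0.184). Slc33a1, which brings acetyl-CoA into the endoplasmic reticulum, was not called.

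Among carriers of peptides and of vesicular or lysosomal anions 1 of 5 members was called higher by limma and 0 lower, also at an unadjusted p under 0.05, and with scaling 3 were higher and 0 lower. The member called as deposited had a control mean below 1 FPKM and passed the minimum only through the Dot1l-deleted group. Slc15a3 encodes PHT2, which exports histidine and small peptides from lysosomes. It had 5.61, 5.40 and 3.64 FPKM in Dot1l-deleted cells, against 0.424, 0.466 and 0.346 FPKM in control cells, 11.9-fold higher (log2 fold change 2.04, SE 0.190, adjusted p = 3.15e-05). Its relative Slc15a4 (PHT1), which supports Toll-like receptor signalling in the same compartment, had 12.5, 10.9 and 8.26 FPKM in Dot1l-deleted cells, against 9.51, 8.34 and 8.16 FPKM in control cells. It was not called as deposited and was called higher with scaling (log2 fold change 0.41, adjusted p = 0.00398). Slc17a9, the vesicular nucleotide carrier, was likewise called higher with scaling (log2 fold change 0.21).

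Among 5 carriers of nucleosides and nucleobases 1 was higher and 1 lower, and with scaling 2 were higher and 1 lower. Slc28a2, a sodium-linked importer of purine nucleosides, had 5.63, 6.33 and 4.64 FPKM in Dot1l-deleted cells, against 1.70, 1.44 and 1.42 FPKM in control cells, 3.64-fold higher (log2 fold change 1.37, SE 0.161, adjusted p = 0.000157). Slc43a3, a carrier of purine nucleobases, had 42.2, 39.3 and 29.7 FPKM in Dot1l-deleted cells, against 68.6, 67.9 and 71.3 FPKM in control cells, 1.87-fold lower (adjusted p = 0.00377). Its neighbour Slc43a1 was not called as deposited (log2 fold change -0.44) and was called lower with scaling (-0.28, adjusted p = 0.0114). Slc29a1 (ENT1), the most abundant nucleoside carrier, had 39.8, 42.5 and 29.3 FPKM in Dot1l-deleted cells, against 47.6, 43.1 and 40.4 FPKM in control cells, with overlapping groups.

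The smaller classes held few calls. Slc14a1, the only urea transporter of the set, had 0.818, 0.716 and 0.950 FPKM in Dot1l-deleted cells, against 2.94, 3.15 and 2.39 FPKM in control cells, 3.41-fold lower (adjusted p = 0.00172). Its Dot1l-deleted mean was below 1 FPKM, so it passed the minimum only through the control group. Of 5 vitamin carriers, Slc23a2, which takes up vitamin C, was 1.71-fold lower and lost its call without the second or the third control (adjusted p up to 0.0518). The folate carrier Slc19a1 and the thiamine carrier Slc19a2 were not called as deposited, and Slc19a2 was called lower with scaling (log2 fold change -0.23, adjusted p = 0.0171). The phosphate carriers Slc20a1 and Slc20a2 had log2 fold changes of -0.02 and 0.02 as deposited and of 0.16 and 0.18 with scaling, where both were called higher. Among 4 rows that carry an Slc symbol but encode no carrier, Slc9a3r2, the scaffold NHERF2, had 3.53, 3.96 and 2.88 FPKM in Dot1l-deleted cells, against 0.725, 0.822 and 0.545 FPKM in control cells, 4.95-fold higher (adjusted p = 0.000317). Its control mean was below 1 FPKM, so it passed the minimum only through the Dot1l-deleted group.

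Some related genes were called in opposite directions. Of 31 families with at least 2 members, 9 held calls in both directions. That number was 5 without the first, the second or the third control, 6 when either of the first 2 Dot1l-deleted libraries was omitted, and 15 when the third one was omitted or with scaling. The families Slc16, Slc24, Slc35, Slc44 and Slc9 held both directions in each of these fits. With a minimum of 5 FPKM, which tests fewer low genes, the number was 4: Slc24, Slc25, Slc39 and Slco. In Slc24, Slc24a6 was higher and Slc24a5 lower. Slc24a6 is now named Slc8b1, so this pair shares a family only by the deposited symbols. In Slc16, Slc16a7 was higher while Slc16a10 and Slc16a12 were lower. In Slc44, the low Slc44a4 was higher and the abundant Slc44a2 lower. In Slc39, Slc39a4 and Slc39a8 were higher while Slc39a6 and Slc39a10 were lower, and both lower calls were lost without any 1 control (adjusted p up to 0.109 and 0.144). The pair in Slc9 consists of the exchanger Slc9a9 and the scaffold Slc9a3r2, so it is not a pair of carriers. In Slc6, Slc16, Slc44 and Slc9 every member called higher had a control mean below 1 FPKM. Those members passed the minimum only through the Dot1l-deleted group, where they are high, and Slc16a12 passed it only through the control group.

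**Figure D4:**
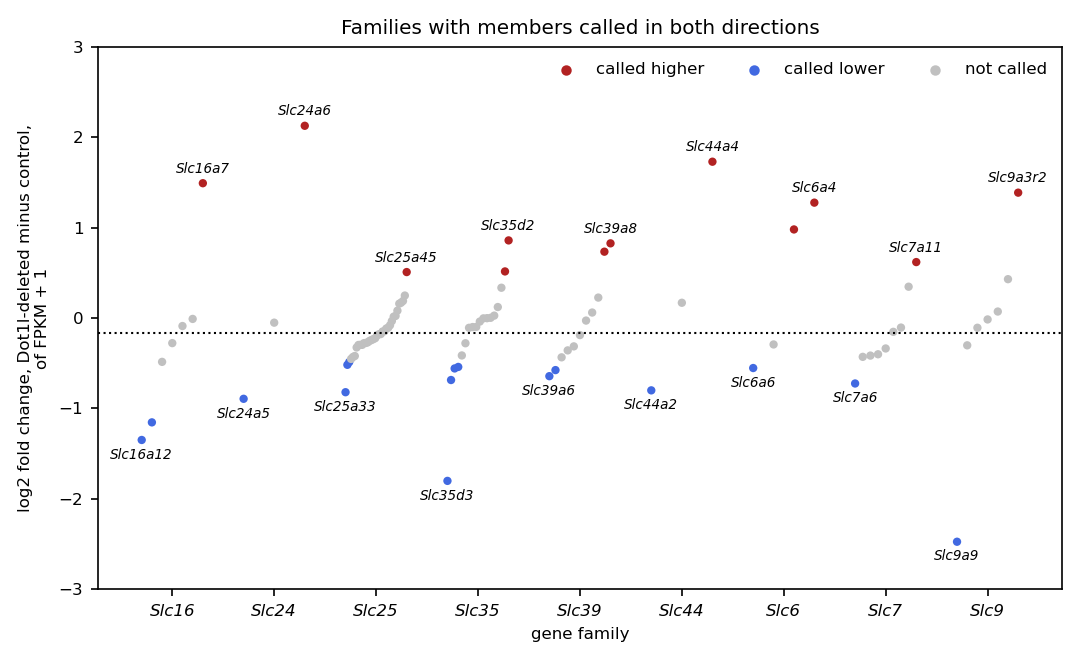
Log2 fold change of FPKM + 1, Dot1l-deleted minus control, of every member of the 9 families with members called in both directions, sorted within a family, with the lowest and highest member named. Red was called higher, blue lower and grey neither, and the dotted line is the median of all tested genes, -0.16. Slc9, Slc24 and Slc16 have the widest spans, and Slc25 stays mostly near the line. Families follow the deposited symbols: Slc24 includes Slc24a6, now named Slc8b1, and Slc9 includes the scaffold Slc9a3r2.

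Genes that work beside the carriers were described from 6 lists with 79 tested genes. Of these 6 were called higher and 15 lower, and with scaling 23 were higher and 28 lower. That is 7.595% and 18.99% as deposited, where 7.43% and 12.2% of all tested genes were called. With scaling it is 29.11% and 35.44%, where 23.0% and 22.3% of all genes were called. Among carriers without an Slc symbol, 2 of 19 were higher and 1 lower, and with scaling 11 were higher and 3 lower. Unc93b1, which escorts Toll-like receptors to endosomes, had 36.6, 35.3 and 25.3 FPKM in Dot1l-deleted cells, against 5.67, 4.86 and 4.36 FPKM in control cells, 6.53-fold higher (adjusted p = 4.29e-06). Mfsd7a was 4.49-fold higher. Its control mean was 0.628 FPKM, so it passed the minimum only through the Dot1l-deleted group, where it is high. Spns2, the exporter of sphingosine-1-phosphate, was 2.55-fold lower. Among 9 chaperones and trafficking genes 1 was higher and 3 lower, and with scaling 2 were higher and 5 lower. Emb (embigin), an ancillary protein of monocarboxylate carriers and of MCT2 above all, had 601, 637 and 423 FPKM in Dot1l-deleted cells, against 210, 197 and 193 FPKM in control cells, 2.77-fold higher. Sgk1, a kinase that keeps carriers at the cell surface, was 4.90-fold lower, and Txnip, which promotes removal of glucose transporters, was 1.999-fold lower. Nedd4, a ubiquitin ligase of carriers, was 1.799-fold lower and lost its call without the second control (adjusted p = 0.0502).

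Iron and heme genes moved in both directions, 3 higher and 2 lower of 13, and with scaling 6 were higher and 2 lower. Hfe, a regulator of iron uptake, was 5.09-fold higher, and Ireb2, the iron regulatory protein IRP2, was 3.34-fold higher, with 134, 147 and 110 FPKM in Dot1l-deleted cells, against 36.4, 41.6 and 39.3 FPKM in control cells. Lcn2, a binder of iron-loaded siderophores that is also a neutrophil granule gene, was 4.34-fold higher. Hmox1, which degrades heme, was 1.41-fold lower and lost its call without any 1 library other than the third Dot1l-deleted one (adjusted p up to 0.231). Steap3, an endosomal iron reductase, was 1.53-fold lower and lost its call without any 1 control or the second Dot1l-deleted library (up to 0.147).

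As deposited, amino acid response and sensing genes were called in 1 direction. Of 22 genes of the amino acid response and synthesis limma called 0 higher and 5 lower, and at an unadjusted p under 0.05 it called 0 higher and 12 lower. With scaling 2 were higher and 11 lower. Nupr1, a stress-induced regulator, had 17.2, 14.7 and 13.6 FPKM in Dot1l-deleted cells, against 72.0, 67.8 and 74.1 FPKM in control cells, 4.71-fold lower (adjusted p = 4.36e-06). Without any 1 control 3 remained lower, since the stress-response factor Ddit3 (1.51-fold lower) and the aminotransferase Gpt2 (1.56-fold lower) lost their calls (adjusted p up to 0.175 and 0.113), and Ddit3 also did when the first Dot1l-deleted library was omitted. Trib3, a target of the amino acid response, was 1.91-fold lower, and Aldh18a1, an enzyme of proline synthesis, was 1.78-fold lower. Of 16 listed sensing genes of the mTORC1 pathway, 9 were matched by symbol and 8 were tested. Mtor, Rptor and Tfeb were among those not matched. Of the 8 tested sensing genes limma called 0 higher and 4 lower, the same as at an unadjusted p under 0.05. With scaling 1 was higher and 4 were lower. Sesn1, a leucine sensor family member, was 2.10-fold lower and Rragb, a Rag GTPase, 2.23-fold lower. Rraga, another Rag GTPase, was 1.58-fold lower. It lost its call without any 1 control (adjusted p up to 0.126), as did Tsc1, a part of the complex that restrains mTORC1 (1.51-fold lower, up to 0.174), which left 2 sensing genes called lower. Tsc1 also lost it when the second Dot1l-deleted library was omitted. Of 8 zinc and copper handling genes limma called 0, while 0 were higher and 2 lower at an unadjusted p under 0.05 and 1 was higher and 3 lower with scaling.

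Of the solute carrier rows below the minimum, 178 in all, 50 were listed at 0 in every library. The 2 nearest the minimum are given as a description. Slc6a2, the noradrenaline transporter, had 2.02, 2.10 and 1.42 FPKM in Dot1l-deleted cells, against 0.0794, 0.0399 and 0.108 FPKM in control cells. Slc39a2, a zinc importer, had 1.35, 1.61 and 1.15 FPKM in Dot1l-deleted cells, against 0.557, 0.672 and 0.630 FPKM in control cells. In both genes every Dot1l-deleted library stood above every control library. Some members share exon sequence with a tested gene on the opposite strand in the GENCODE M21 annotation, namely Slc4a2, Slc20a2, Slc26a10, Slc2a12 and Slc48a1 among those named here. The sources used here do not say whether counting used the strand, so the values of these genes are less certain. No member called as deposited was among the overlapping genes, while Slc4a2, Slc20a2 and Slc26a10 were called higher with scaling.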

How the data were processed

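RNA was measured in 3 Dot1l-deleted and 3 control libraries, grouped by the labels. The authors deposited FPKM, 1 value per gene and library. The submitters' processing notes name GSNAP, SAMtools, Cuffdiff, CASAVA 1.8.2 and build mm9, with no role or order. FPKM gives no read counts, so depth is unknown and no counting intervals are given. The 378 genes with the placeholder 999999999 in any library were left out. A mean of at least 1 FPKM was required, and the resulting 11924 genes were fitted with limma 3.58.1 (R 4.3.3) using eBayes with a variance trend, on log2(FPKM + 1), two-sided, with Benjamini-Hochberg adjustment over all of them and a threshold of 0.05. This scale understates changes of low genes. Fold changes are Dot1l-deleted minus control, and other folds are ratios of the group means. The script was tested on simulated data.

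The members, substrate classes and lists were chosen with earlier results of these data known. Within each class the text names up to 4 called, non-overlapping members per direction by size of change and the 2 with the highest mean. It also names up to 3 called genes per partner list and direction by adjusted p, and Slc11a2, Slc12a7, Slc22a4, Slc22a5, Slc25a37, Slc25a38, Slc31a1, Slc43a1, Slc46a1 and Slc48a1, with Cpa3, Ddit3, Gpt2, Mcpt8 and Tsc1, chosen after their values were seen. Promoters were chosen after the results were seen. Sequences are from RefSeq and neighbours and overlaps from GENCODE M21, both on another build than the files. Same-numbered replicates did not deviate together (correlations -0.0301, -0.0377 and 0.0128), so no block was used. Alternatives covered the pseudocount (0.1 and 5), the filter, the scaling, the variance model, a replicate block and each library left out.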

Additional observations from a re-analysis of the deposited data

How the results depend on the processing

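The pseudocount of 0.1 or 5, the variance model and the unfiltered fit kept the members' counts within 1.5 times of the 19 higher and 35 lower reported, though the unfiltered fit ended 6 of the higher and 8 of the lower calls and the fit without a variance trend 2 and 2. A minimum of 5 FPKM, which tests fewer low genes, gave 6 members higher. Among members still tested it ended 2 higher calls, Slc27a4 and Slc35a5 (limma adjusted p = 0.0619 and 0.0919). It added a higher call for Slco4a1 (adjusted p = 0.0160). Median-of-ratios scaling gave 52 higher and 55 lower, and quantile normalization 48 and 58. Scaling without the third Dot1l-deleted library gave 47 higher. Leaving out 1 library gave 13 to 43 members higher and 17 to 52 lower. For the partner genes, 6 higher and 15 lower as reported, scaling gave 23 and 28, quantile normalization 19 and 31, and scaling without the third Dot1l-deleted library 21 and 23. Leaving out 1 library gave 6 to 20 higher and 8 to 23 lower. The cause of these shifts was not tested. Slc20a1 reversed, with a log2 fold change of 0.16 under median-of-ratios scaling and 0.14 under quantile normalization, beside -0.02 as deposited. For 75 named members, 1119 values under alternatives held 969 with the same call, 105 that lost it, 43 that gained it and 2 that reversed. Dot1l was called lower in all of its alternatives. A block for replicate number gave 21 members higher and 36 lower. The labels do not say whether same-numbered libraries pair, and their low correlations do not settle it. With 3 libraries a group and unknown depth, small changes may be missed.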

Other observations

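Below the minimum level, the fit without a filter called further carriers, which were chosen for mention after their values were seen. Slc32a1, the vesicular carrier of GABA and glycine, averaged 1.39 FPKM in Dot1l-deleted cells and 0.0925 FPKM in control cells (limma adjusted p = 0.00111). Slc18a1, the VMAT1 relative of Slc18a2, averaged 0.305 FPKM in Dot1l-deleted cells and 1.22 FPKM in control cells (adjusted p = 0.00271). In both genes the groups did not overlap. At such levels the values rest on few fragments, and their number is unknown.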
